A study of Rattus norvegicus with 72 samples.

Results

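Macrophages are phagocytic immune cells that live in most tissues, and 10 genes commonly used to mark them were followed here in rat mammary gland, liver and adipose tissue. The genes were taken by name: every array probe set annotated with 1 gene symbol equal to Cd68, Lyz2, Aif1, Mrc1, C1qa, C1qb, C1qc, Csf1r, Cd163 or Itgam. That gave 11 probe sets of 31042, and 10 genes of the 14217 with such a probe set; Aif1 had 2 probe sets and the others 1 each. All values are log2 signals, so a difference of 1 is a doubling.

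Arrays came from lactating and pregnant rats in hypergravity or at standard gravity, with 5 rats in each of the 4 groups and mammary gland, liver and adipose tissue from every rat (12 groups, 60 arrays). A separate set of 12 arrays held pregnant mammary gland in microgravity (4 arrays, coded FLT), with 4 flight control arrays (FDS) and 4 arrays of a vivarium control (VIV). Strain, age and the length of exposure are not given in the sources used here, and the labels do not say whether the 4 letters in the microgravity set stand for different rats, so p-values there measure only the spread between arrays. Array medians ran from 4.32 to 4.56 in the first set and from 4.87 to 5.02 in the second, and levels were not compared between the sets. Arrays M210H and A210H were left out: the milk protein genes averaged 2.97 on M210H, labelled mammary, and 13.1 on A210H, labelled adipose. The mean of 10 skeletal muscle genes, 10 hepatocyte genes or 5 milk protein genes stood more than 2 log2 units above its median in the tissue on 11 of the arrays used (mammary M52S, M56H, M50H and M212H; liver L55H and L214S; adipose A55H, A217H and A48S; VIVA and VIVC), and results that change without them are marked.

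Resident macrophages take their survival signal from the CSF1 receptor (Csf1r), a receptor tyrosine kinase for CSF1 and IL34, and the transcription factor PU.1, product of Spi1, drives much of their gene program. In the mammary gland they surround ducts and alveoli and clear dying cells, in liver they line the sinusoids as Kupffer cells, and in fat they sit between adipocytes. C1qa, C1qb and C1qc encode the chains of C1q, the recognition protein of the classical complement pathway. Cd163 takes up haemoglobin bound to haptoglobin, and Mrc1 is the mannose receptor; both are used as markers of resident or alternatively activated macrophages. Cd68 is a glycoprotein of the lysosome membrane, Lyz2 is lysozyme, Aif1 (IBA1) binds actin and calcium, and Itgam is the alpha chain of the CD11b/CD18 integrin, also present on neutrophils.

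The C1q genes lie side by side in GRCr8, the RefSeq assembly used for positions: C1qb at chr5:154402276-154407827, C1qc at chr5:154410845-154414208 and C1qa at chr5:154417086-154419933, with no other annotated gene in their span of 17658 bases. The remaining genes are on chromosomes of their own: Itgam on 1, Cd163 on 4, Lyz2 on 7, Cd68 on 10, Mrc1 on 17, Csf1r on 18 and Aif1 on 20. RefSeq promoter windows of 300 bases were held for 8 of the genes, and GAGGAA, the core recognised by PU.1, was searched on both strands (TTCCTC on the other). It was found in 6 of the 8 (Cd68, Lyz2, Mrc1, C1qb, Csf1r and Itgam), against 27.6% of 33469 rat promoter windows of the same length. Cd163 and C1qa did not hold these letters. The windows of Lyz2, Csf1r, Cd163 and Itgam are counted too, though their start is not the annotated start of the gene. The 150 bases just before the start are shown for the 4 genes where both agree, 5′ to 3′ on the gene's strand, with the core in capitals. Below, Cd68 was lower in lactating mammary gland and Mrc1 higher there in hypergravity. C1qb and C1qa, the outer genes of the C1q span, moved together within mammary groups (Pearson r = 0.88) but not within liver groups (r = 0.0324). The sequences shown are chr10:54882442-54882591 (minus strand), chr17:82157575-82157724 (plus), chr5:154407828-154407977 (minus) and chr5:154419934-154420083 (minus).
Cd68: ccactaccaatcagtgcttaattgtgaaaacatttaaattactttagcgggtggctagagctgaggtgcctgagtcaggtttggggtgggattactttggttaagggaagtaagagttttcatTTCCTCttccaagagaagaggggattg
Mrc1: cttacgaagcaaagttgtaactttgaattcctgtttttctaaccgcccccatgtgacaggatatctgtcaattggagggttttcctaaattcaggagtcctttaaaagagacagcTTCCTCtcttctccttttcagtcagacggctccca
C1qb: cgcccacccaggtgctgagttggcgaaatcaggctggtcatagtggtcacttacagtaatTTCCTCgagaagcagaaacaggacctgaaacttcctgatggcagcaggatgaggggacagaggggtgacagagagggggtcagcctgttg
C1qa: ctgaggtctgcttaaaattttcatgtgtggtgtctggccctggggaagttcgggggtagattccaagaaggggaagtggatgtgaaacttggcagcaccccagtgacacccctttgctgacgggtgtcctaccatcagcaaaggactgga
Of all windows, 14.5% held the core within these 150 bases, so a match is a description of the letters only.

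In mammary gland at standard gravity, 5 of the 10 genes fell in lactation against pregnancy and 0 rose, where 34.1% of all probe sets were called (limma, adjusted p under 0.05 over all 31042). The median log2 fold change was -0.76 for the 10 genes and -0.01 for all probe sets. Lyz2 was 7.60, 8.32, 8.77, 8.05 and 9.60 in lactating glands, against 10.77, 11.07, 11.31, 11.09 and 10.68 in pregnant glands. All lactating glands lay below all pregnant ones, a 5.73-fold drop (log2 fold change -2.52, SE 0.30, limma adjusted p 1e-05). Cd68 was 6.53, 6.35, 6.38, 6.60 and 6.71 in lactation, against 7.68, 8.75, 8.52, 9.08 and 8.52 in pregnancy. Again the groups did not overlap, with Cd68 3.99-fold lower in lactation (log2 fold change -2.00, SE 0.30, limma adjusted p 6.9e-05).

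Csf1r, the receptor itself, measured 6.68, 6.91, 6.49, 6.87 and 7.09 in lactating glands, against 7.57, 8.61, 8.28, 8.70 and 8.15 in pregnant glands. It fell 2.74-fold without overlap (log2 fold change -1.45, SE 0.27, limma adjusted p 0.00047). Aif1 showed the same separation, with 6.86, 6.49, 7.14, 6.65 and 6.81 in lactation, against 8.49, 8.64, 8.23, 8.51 and 8.09 in pregnancy (3.03-fold lower, log2 fold change -1.60, SE 0.18, limma adjusted p 5.5e-06). Its dimmer probe set lay between 2.51 and 3.96 on the 58 arrays and was not called (limma adjusted p 0.92). Cd163 overlapped between the groups, at 9.12, 8.86, 8.18, 7.79 and 8.60 in lactation, against 9.06, 9.42, 9.19, 9.45 and 9.77 in pregnancy. Its 1.83-fold drop (log2 fold change -0.87, SE 0.31, limma adjusted p 0.034) lost its call without any 1 of M216S, M52S, M44S, M57S, M219S or M214S, with adjusted p between 0.05 and 0.1.

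The other 5 genes did not pass the test in this comparison. Mrc1 averaged 9.99 ± 0.15 in lactating and 10.18 ± 0.16 in pregnant glands (SD, n = 5 each), a log2 fold change of -0.19 (SE 0.16, limma adjusted p 0.41). C1qa differed by -0.13 (SE 0.37), C1qc by -0.41 (SE 0.34) and C1qb by -0.64 (SE 0.30) on the log2 scale, with limma adjusted p of 0.85, 0.4 and 0.11. Itgam was under the array median on every mammary array, between 2.38 and 2.97, so its log2 fold change of 0.03 says little about a change. In whole tissue, fewer macrophages, less of these RNAs per macrophage and a changed share of RNA from other cells cannot be told apart.

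**Figure D1:**
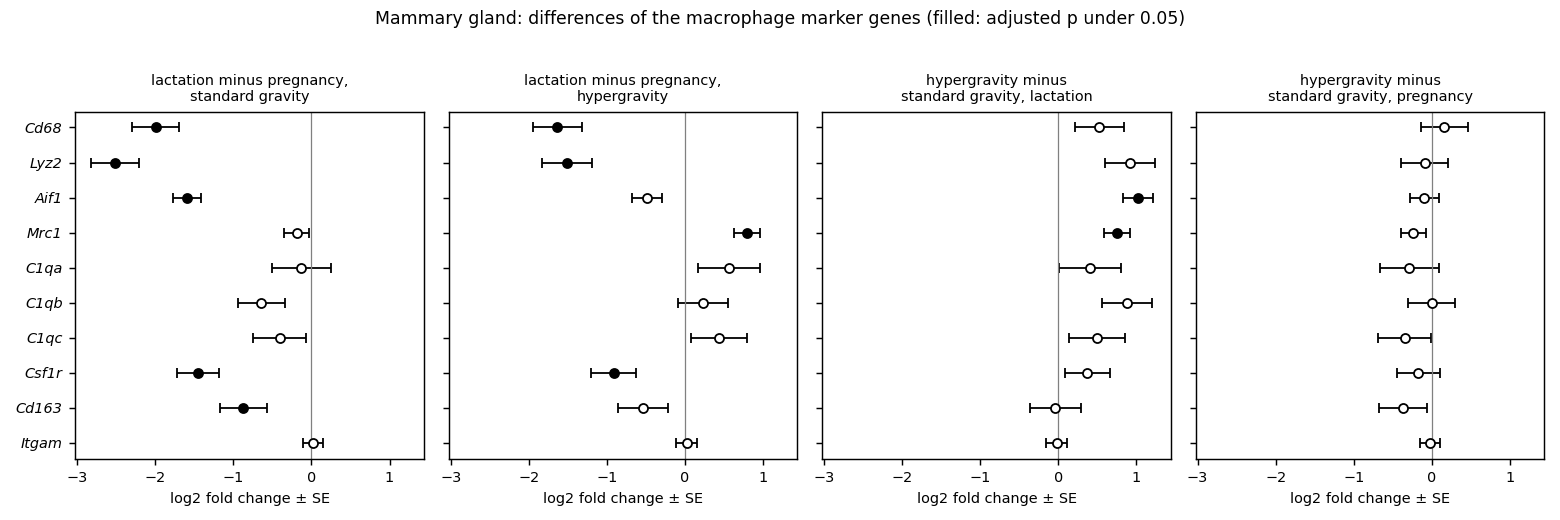
Log2 fold changes (x axis, ± SE) of the 10 genes (y axis) in 4 mammary comparisons, with filled points where the limma adjusted p was under 0.05. Cd68, Lyz2 and Csf1r are filled below 0 in both lactation panels, Mrc1 is filled above 0 at hypergravity, Aif1 and Mrc1 are filled above 0 for hypergravity in lactation, and no point is filled for hypergravity in pregnancy.

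Other lists of macrophage genes were counted in that comparison too, against the same 34.1% of all probe sets. Of the 13 measured genes of the CSF1 receptor pathway and macrophage growth and transcription factors, 9 fell and 1 rose. Csf2ra, the alpha chain of the GM-CSF receptor, averaged 4.69 ± 0.43 in lactating and 7.17 ± 0.34 in pregnant glands (5.57-fold lower, SD, n = 5 each). Tyrobp, an adaptor of activating myeloid receptors, was 2.32-fold lower, and Trem2, a lipid receptor that signals through it, 2.18-fold lower. Of 20 other macrophage and monocyte genes, 7 fell and 1 rose, a share called near that of all probe sets. Itgax, the CD11c integrin chain that dendritic cells also carry, was 6.73-fold lower, Cd14, the endotoxin co-receptor, 4.47-fold and Itgb2, the partner chain of Itgam and Itgax, 2.74-fold. Among 6 measured genes of a complement list set beside C1q, 5 fell and 0 rose. The list was led by complement C3 (7.43-fold lower) and the C1s protease (3.07-fold lower).

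Markers of other cells moved too, where 34.1% of all probe sets were called. Of 8 measured dendritic cell and antigen presentation genes 4 fell, and of 8 epithelial markers 5 fell, with Krt8 3.24-fold lower. Of 5 measured milk protein genes 2 rose (Lalba 2.86-fold, Wap 1.20-fold), and their mean was 13.1 to 13.2 in lactating and 12.5 to 13.0 in pregnant glands. The lymphocyte list averaged 3.99 to 6.31 in lactating and 4.76 to 5.21 in pregnant glands, with 0 of 9 genes called, and neutrophil (0 of 7) and mast cell (0 of 8) lists had no call either. The part of these shifts in the macrophage result was not tested.

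At hypergravity 3 of the 10 genes, Cd68, Lyz2 and Csf1r, fell in lactation and 1, Mrc1, rose, where 29.3% of all probe sets were called. Cd68 was 6.82, 7.08, 6.77 and 7.47 in lactating glands, against 8.77, 9.02, 7.36, 8.96 and 9.24 in pregnant ones. Only M56H, which carried hepatocyte genes (list mean 9.87), brought the groups to overlap, and Cd68 was 3.10-fold lower in lactation (log2 fold change -1.63, SE 0.31, limma adjusted p 0.001). Lyz2 was 9.21, 9.01, 9.41 and 9.89 in lactation, against 11.23, 10.41, 10.32, 11.11 and 11.37 in pregnancy, without overlap (2.85-fold lower, log2 fold change -1.51, SE 0.32, limma adjusted p 0.0022). Csf1r fell 1.88-fold (log2 fold change -0.91, SE 0.29, limma adjusted p 0.023), a call that ended without M59H, M50H, M203H, M212H or M60H (adjusted p 0.05 to 0.098) and with only the groups compared in the fit (0.079).

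Mrc1 was 10.20, 10.90, 10.99 and 10.87 in lactating glands at hypergravity, against 9.65, 9.87, 10.31, 9.72 and 10.17 in pregnant glands. M203H lay within the pregnant range and the other lactating glands above it, and Mrc1 was 1.74-fold higher (log2 fold change 0.80, SE 0.17, limma adjusted p 0.0019). Aif1 differed by -0.49 (SE 0.19, limma adjusted p 0.065) and was called lower without M50H or without M217H (0.03 and 0.027). The same call came after quantile normalization (limma adjusted p 0.049), with probe sets averaged per gene (0.037) and with M210H and A210H kept (0.047). C1qa, C1qb, C1qc, Cd163 and Itgam were not called, with log2 fold changes between -0.54 and 0.56.

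Other lists differed there as well, where 29.3% of all probe sets were called. Of 9 lymphocyte genes 4 fell, Cd3g of the T cell receptor complex 6.67-fold, and the list averaged 4.02 to 4.37 in lactating and 4.58 to 6.88 in pregnant glands. The neutrophil list had 2 of 7 genes higher and 1 lower in lactation, with S100a8 46.7-fold higher. Of 20 other macrophage and monocyte genes 4 rose, Cd14 3.66-fold, and 3 fell, Itgax 3.46-fold. Of 13 CSF1 pathway genes 1 rose and 5 fell. Of 6 genes of haemoglobin scavenging and iron export, the pathway of Cd163, 3 rose and 0 fell, among them the iron exporter Slc40a1 (2.92-fold). Of 8 epithelial markers 2 rose and 0 fell, where at standard gravity 5 fell. The part of the other cells in the macrophage result was not tested.

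Hypergravity against standard gravity gave 0 called genes in pregnant glands, where 0.00322% of all probe sets were called. There 0 of the 10 genes had an unadjusted limma p under 0.05, against 1668 of all 31042 probe sets. In lactating glands 2 of 10 rose, Aif1 and Mrc1, where 9.43% of all probe sets were called. Aif1 was 7.52, 8.01, 7.47 and 8.23 in hypergravity, against 6.86, 6.49, 7.14, 6.65 and 6.81 at standard gravity, without overlap (2.02-fold higher, log2 fold change 1.02, SE 0.19, limma adjusted p 0.0017). The Mrc1 values of the hypergravity glands, given above, all lay over the standard gravity values of 10.16, 10.01, 9.98, 9.76 and 10.05 (1.68-fold higher, log2 fold change 0.75, SE 0.17, limma adjusted p 0.0067).

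Lyz2 and C1qb lay near the threshold. For Lyz2 the log2 fold change was 0.91 (SE 0.32, limma adjusted p 0.092); the standard gravity gland M219S, at 9.60, was the one inside the hypergravity range, and it also had the highest lymphocyte list mean of its group (6.31, group median 4.16). Without M219S the adjusted p was 0.01, and with array weights it was 0.041. C1qb was 6.79, 7.08, 6.79 and 7.52 in hypergravity, against 6.08, 6.24, 6.26, 5.75 and 6.50 at standard gravity, groups that did not overlap, with a log2 fold change of 0.88 (SE 0.32, limma adjusted p 0.1, and 0.012 with only the groups compared in the fit). It was also called with array weights (limma adjusted p 0.016), without M55H (0.04) and with M210H and A210H kept (0.048).

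The change of the stage effect with gravity was tested directly. Aif1 and Mrc1 were called in that interaction (2 of 10, where 4.03% of all probe sets were), with lactation minus pregnancy differing between hypergravity and standard gravity by 1.11 (SE 0.26, limma adjusted p 0.021) and 0.99 (SE 0.23, limma adjusted p 0.019) on the log2 scale. Without the arrays carrying markers of another tissue the differences were 1.00 for Aif1 and 0.90 for Mrc1, close to those values, but neither was called (adjusted p 0.065 and 0.07), and Aif1 was not called without M217H or M206H (0.052 and 0.053). For Cd68 the interaction was 0.36 (SE 0.43) and for Lyz2 1.01 (SE 0.44), with limma adjusted p of 0.8 and 0.28.

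The other lists in lactating glands were set against the 9.43% of all probe sets called (4.49% higher and 4.94% lower). Hypergravity raised 4 of 20 other macrophage genes and 4 of 13 CSF1 pathway genes, and lowered 0 of either. Cd14 averaged 11.60 ± 0.56 in hypergravity (SD, n = 4) and 8.13 ± 0.90 at standard gravity (SD, n = 5), an 11.0-fold rise. Gpnmb, a glycoprotein of phagocyte lysosomes and other cells, was 9.53-fold higher, Itgax and Csf2ra 1.88-fold and 1.98-fold, the Src family kinase Lyn 1.98-fold and Tyrobp 1.63-fold. The neutrophil list had 2 of 7 genes higher, S100a8 (18.0-fold) and S100a9 (5.22-fold), which monocytes and stressed epithelium also make, and the epithelial list had 5 of 8 higher, Krt7 9.01-fold. Lymphocyte genes were called in 0 of 9, and the part of these lists in the macrophage result was not tested.

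In liver none of the 10 genes was called in any of the 5 comparisons of stage and gravity. The share of all probe sets called there was 0.622% for lactation against pregnancy at standard gravity, 3.23% for the same at hypergravity, 0.103% for hypergravity in pregnancy, 0.406% for hypergravity in lactation and 0.126% for the interaction. An unadjusted limma p under 0.05 was reached by 1 gene in 1 of these comparisons, Cd163 for hypergravity in pregnancy. Of all 31042 probe sets, 2507 reached it there. Cd163 measured 9.50, 9.39, 9.21, 9.15 and 9.52 in hypergravity livers, against 9.95, 9.54, 9.93, 9.91 and 9.89 at standard gravity. The groups just failed to overlap, with L44S the lowest of the standard gravity livers (log2 fold change -0.49, SE 0.13, limma adjusted p 0.21). Liver values were mostly tight: the typical within-group SD of the 9 genes other than Itgam ran from 0.13 to 0.35 log2 units. The largest was 0.68, for Aif1 in lactating hypergravity livers. There L212H was lowest for Cd68, Aif1, C1qb, C1qc and Csf1r. Its upper quartile over all probe sets, 6.53, was the lowest of the first set (next A48S at 6.84).

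Adipose tissue also gave 0 of 10 in each of its 5 comparisons, where the share of all probe sets called was 0.00322% for lactation against pregnancy at standard gravity and 0% for the other 4. An unadjusted limma p under 0.05 was reached by 1 gene in lactation against pregnancy at standard gravity (Cd163, 10.69 to 11.66 in lactation and 9.89 to 11.22 in pregnancy) and by 1 gene in the interaction. Here the spread was wide, with typical within-group SDs of 0.28 to 0.93 log2 units. Cd68, for instance, was 9.39 on A42S and 6.12 on A48S in the same group, pregnant rats at standard gravity. On A48S the 10 skeletal muscle genes averaged 12.3, and that array was the lowest of the 19 for Cd68, Aif1, Mrc1, C1qa, C1qb, C1qc and Csf1r.

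The fall of several genes in lactation was larger in mammary gland than in the other tissues by a test of the difference. At standard gravity the stage effect was called lower in mammary gland than in liver for 4 of 10 genes, where 22.1% of all probe sets were called, and lower than in adipose tissue for 6 of 10, where 21% were. Cd68 had log2 fold changes of -2.00 in mammary gland, -0.24 in liver and 0.74 in adipose tissue, so that mammary differed from liver by -1.76 (SE 0.51, limma adjusted p 0.0089) and from adipose by -2.73 (SE 0.51, limma adjusted p 8e-05). Lyz2 had -2.52 in mammary gland, 0.21 in liver and -0.17 in adipose tissue (differences -2.73 and -2.35, limma adjusted p 5e-06 and 6.7e-05). Csf1r differed by -1.48 from liver (limma adjusted p 0.0047) and by -1.95 from adipose (0.00027), and Aif1 by -1.29 (0.032) and -1.72 (0.004). The Aif1 difference from liver lost its call without any 1 of 6 arrays (adjusted p 0.05 to 0.056).

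Against adipose tissue, Cd163 (-1.44, SE 0.35, limma adjusted p 0.0023) and C1qb (-1.71, SE 0.55, limma adjusted p 0.021) were called as well, and against liver neither was (0.13 and 0.72). The C1qb call ended without A48S (0.07), without M44S (0.052) and without the arrays carrying markers of another tissue (0.094). For Mrc1, C1qa, C1qc and Itgam neither difference of stage effects was called. Against adipose tissue, though, Mrc1 (-0.61, limma adjusted p 0.073) was called without A42S (0.024) and after quantile normalization (0.017), and C1qc (-0.99, limma adjusted p 0.09) without A42S (0.036) or M60H (0.047).

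**Figure D2:**
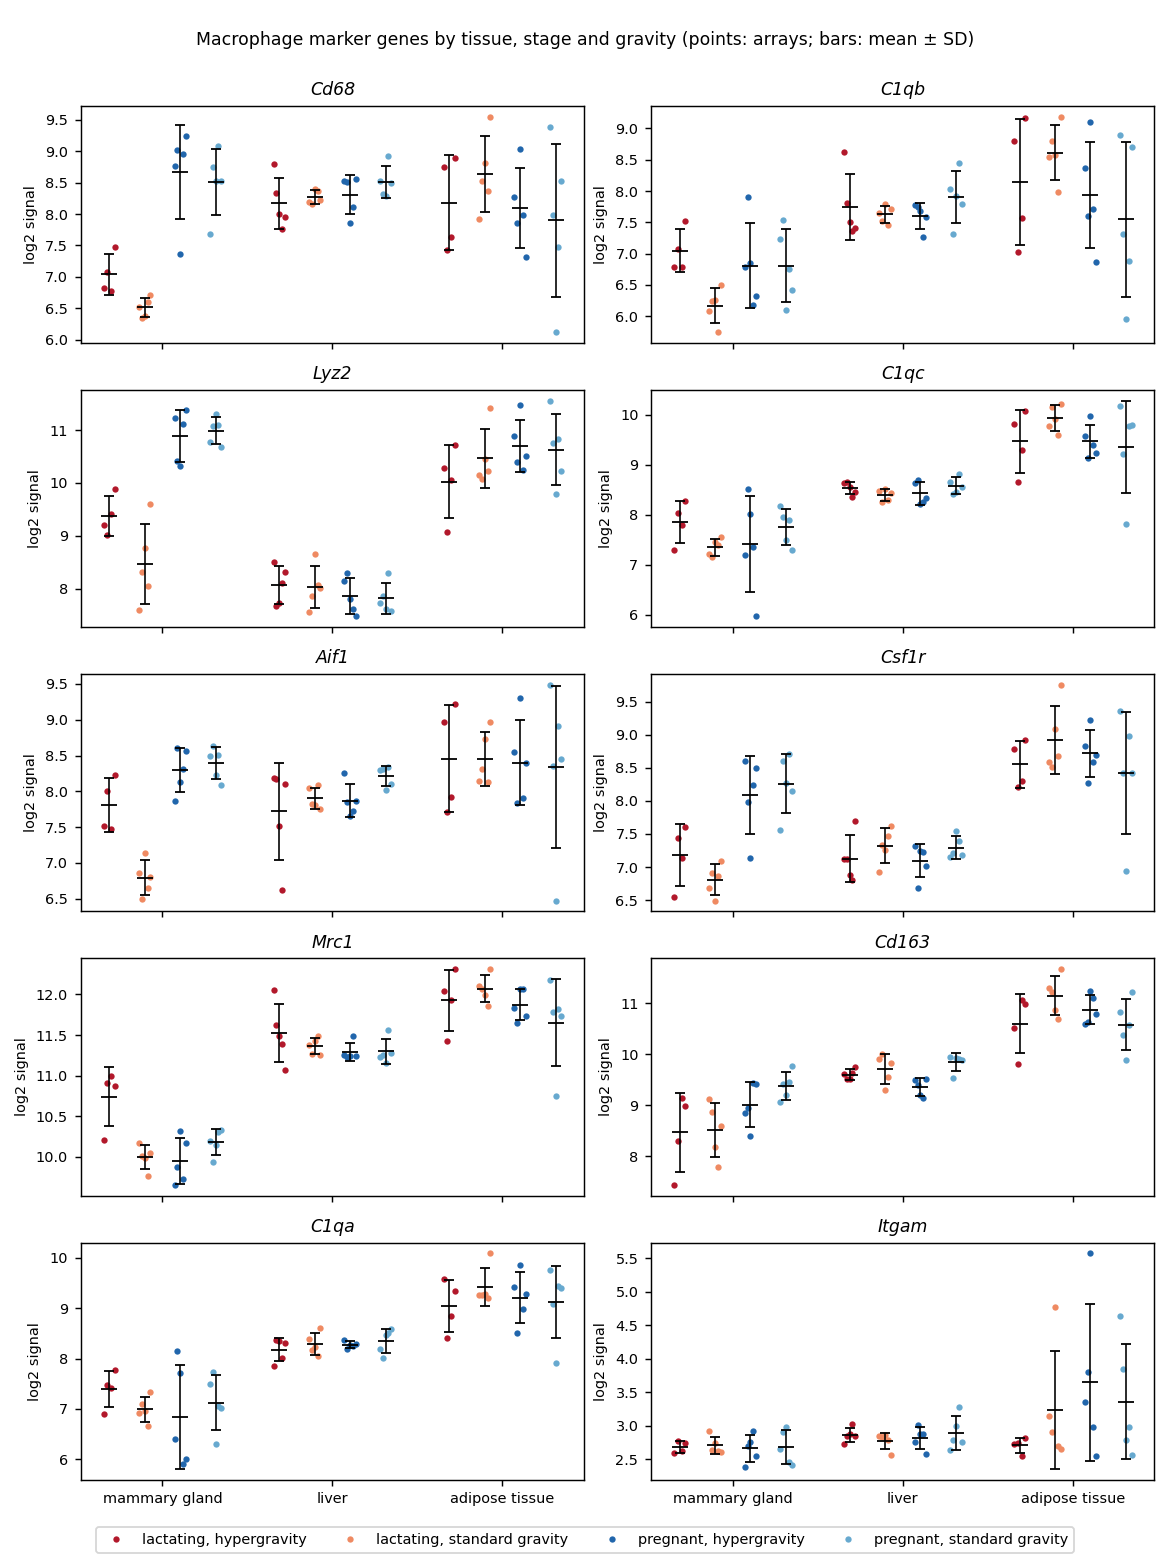
Log2 signal (y axis) of each gene on every array of the 12 groups in the 3 tissues, with points for arrays and bars for mean ± SD. Within mammary gland, the lactating group means of Cd68, Lyz2 and Csf1r lie below the pregnant ones at both gravities (the Aif1 difference at hypergravity was not called), while the liver and adipose groups lie close together or overlap.

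Adipose tissue had the highest group mean for 8 of the 10 genes, all but Cd68 and Lyz2, though adipose RNA was extracted with another kit, and the kit and the tissue cannot be told apart. The lowest group mean was that of lactating mammary gland at standard gravity for Cd68, Aif1, C1qb, C1qc and Csf1r. Pregnant mammary gland set the top for the remaining pair, with Cd68 at 8.67 ± 0.75 in hypergravity and Lyz2 at 10.98 ± 0.26 at standard gravity (SD, n = 5 each). Most neighbours in the order of the 12 group means did not differ beyond their spread: between 0 and 3 of the 11 gaps per gene exceeded the larger SD of the 2 groups.

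Tissue order differed from gene to gene. In pregnancy at standard gravity, mammary gland had 2 genes higher and 4 lower than liver, not far from the 50.4% of all probe sets called. Lyz2, which stood apart, was 10.77, 11.07, 11.31, 11.09 and 10.68 in mammary gland, against 7.74, 7.86, 7.62, 8.30 and 7.58 in liver (8.96-fold higher, log2 fold change 3.16, SE 0.31, limma adjusted p 1.1e-12). Csf1r was 1.96-fold higher in mammary gland than in liver, while Mrc1 (2.17-fold), C1qa (2.34-fold), C1qb (2.14-fold) and C1qc (1.77-fold) were lower. The C1qb call ended without L52S or M48S (adjusted p 0.053 and 0.062) and the C1qc call without M57S (0.058). Cd68 differed by 0.00 (SE 0.36) and Aif1 by 0.18 (SE 0.32) on the log2 scale.

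Against adipose tissue in pregnancy, mammary gland had 4 genes lower and 0 higher, a share near the 41.2% of all probe sets called. The 4 were C1qa (3.98-fold), C1qc (3.03-fold), Mrc1 (2.77-fold) and Cd163 (2.30-fold). Without the arrays carrying markers of another tissue, Csf1r and C1qb were called lower too (adjusted p 0.034 and 0.029). Cd68, at a log2 fold change of 0.61 (limma adjusted p 0.18), was called higher in mammary gland without A42S (0.98, adjusted p 0.021). Liver had 5 genes lower than adipose tissue and 0 higher (36% called), with Lyz2 7.02-fold lower at 7.82 ± 0.29 in liver and 10.63 ± 0.67 in adipose tissue (SD, n = 5 each, limma adjusted p 5.8e-11). The C1qa, C1qc and Cd163 calls of that set ended on leaving out single arrays, A57S ending all of them (adjusted p 0.079 to 0.1). Mrc1, at a log2 fold change of -0.36 (limma adjusted p 0.11), was called lower in liver without the arrays carrying markers of another tissue (-0.58, adjusted p 0.002), as it was without A48S alone (0.0026). Cd68, at 0.61, was called higher in liver without A42S (0.98, adjusted p 0.025).

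In lactation at standard gravity more genes were lower in mammary gland. It had 7 genes lower than liver and 0 higher (35.4% called), Cd68 by 3.38-fold, and 9 lower than adipose tissue and 0 higher (29.9% called), every gene except Itgam. Cd163 was 9.12, 8.86, 8.18, 7.79 and 8.60 in lactating mammary gland, against 11.30, 11.22, 10.86, 10.69 and 11.66 in lactating adipose tissue, without overlap (6.22-fold lower, log2 fold change -2.64, SE 0.25, limma adjusted p 1.8e-12). C1qc was 6.00-fold and C1qb 5.46-fold lower. Liver had 7 genes lower than adipose tissue and 0 higher (33% called), among them Lyz2 5.39-fold, Csf1r 3.03-fold and Cd163 2.70-fold, and C1qb whose call (adjusted p 0.046) ended without any 1 of 9 arrays (0.056 to 0.13).

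Kupffer cell genes served as a check of the liver label. In pregnancy at standard gravity, 5 of 7 measured were higher and 0 lower in liver than in adipose tissue (36% of all probe sets called). Mammary gland had 6 lower and 0 higher than liver there (50.4% called). In lactation 3 were higher in liver than in adipose tissue and 1 lower (33% called). The lower gene was Id3 (3.95-fold), a transcription regulator that many other cells make. Clec4f, a lectin of Kupffer cells, averaged 11.05 ± 0.17 in liver and 3.05 ± 0.28 in adipose tissue in pregnancy, with 10.71 ± 0.16 in liver and 2.94 ± 0.11 in adipose tissue in lactation (SD, n = 5 each).

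Itgam stayed under the array median on all 19 mammary, 20 liver and 12 microgravity-set arrays. In adipose tissue it passed the median on 3 of 19, at 4.64 on A42S, 5.57 on A56H and 4.77 on A214S, with 2.91 as the tissue's median. A42S and A56H also had the highest lymphocyte list means in adipose tissue (6.14 and 7.24), while A214S had 4.43; the part of lymphoid cells was not tested.

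In mammary gland and liver the genes did not move as 1 block within groups, while in adipose tissue they went together. After each group's mean was subtracted, the 36 pairs of the 9 genes other than Itgam had a median Pearson r of 0.84 over 19 adipose arrays, 0.21 over 20 liver arrays and 0.16 over 19 mammary arrays. All 36 adipose pairs exceeded 0.5, and 6 did in mammary gland and 6 in liver. Without the arrays carrying markers of another tissue the medians were 0.72 over 16 adipose, 0.28 over 18 liver and 0.22 over 15 mammary arrays. Of the 36 pairs, 32 then exceeded 0.5 in adipose tissue, 7 in liver and 7 in mammary gland. These are descriptions, and arrays share batch and tissue content.

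In mammary gland the pairs fell apart by gene. C1qa, C1qb and C1qc went together with r between 0.71 and 0.88, and Cd68 went with Csf1r at 0.86, but the C1q genes ran with Cd68, Lyz2 and Csf1r only at r between -0.29 and -0.01. In adipose tissue the same cross pairs had r between 0.70 and 0.93. Leaving out the arrays carrying markers of another tissue gave cross pairs between -0.15 and 0.01 in mammary gland and between 0.50 and 0.90 in adipose tissue. The C1q pairs themselves had r between 0.0324 and 0.641 in liver and between 0.785 and 0.905 in adipose tissue. In mammary gland other genes were closer to the C1q genes than these were to each other. They were Mob2 for C1qa (r = 0.928), Dpp7 for C1qb (0.896), and Itgb5 (0.952) and the ribosomal protein gene Rplp0 (0.942) for C1qc. Pregnant mammary gland in hypergravity shows how far C1q could spread. C1qa was 6.40 on M50H, 5.91 on M59H and 6.00 on M60H, but 8.15 on M55H and 7.71 on M56H. Cd68 was 8.77, 8.96, 9.24, 9.02 and 7.36 on those arrays in the same order. Of these arrays, M50H carried skeletal muscle genes (list mean 8.54) and M56H carried hepatocyte genes (list mean 9.87). The mean deviation of the 9 genes in a rat's tissues was nearly unrelated between tissues, with r of -0.08 for mammary gland and liver, 0.11 for mammary gland and adipose tissue and 0.17 for liver and adipose tissue (19 rats each).

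**Figure D3:**
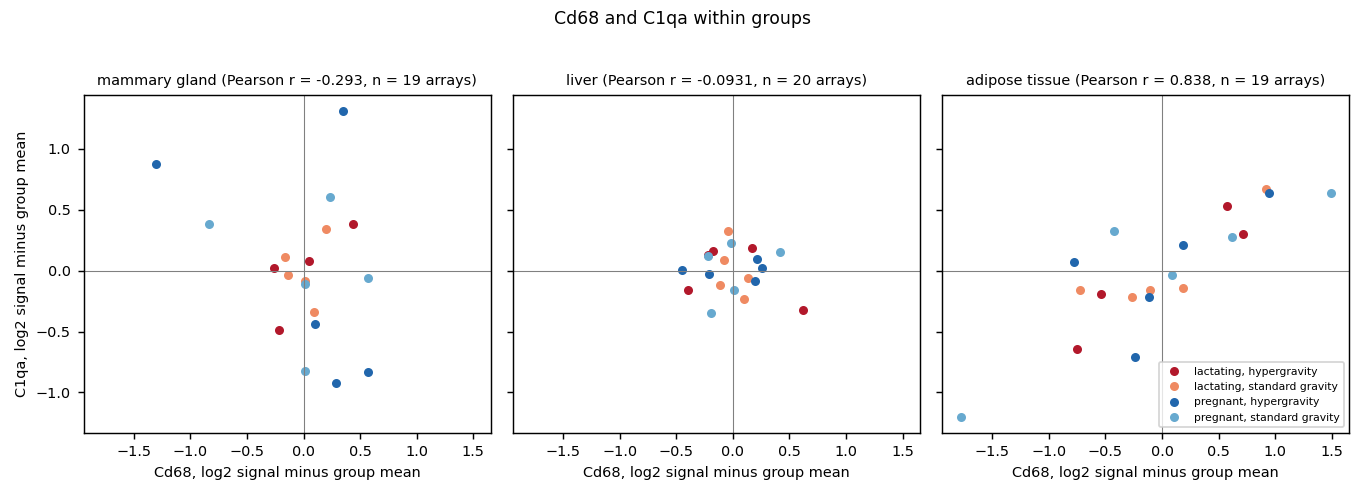
Cd68 (x axis) against C1qa (y axis), each as log2 signal minus its group mean, with 1 point per array in mammary gland, liver and adipose tissue. The adipose points rise together (r = 0.838), with A48S at the lower left, and the mammary (r = -0.293) and liver (r = -0.0931) points do not. Leaving out the arrays carrying markers of another tissue gave r of 0.777 in adipose tissue, 0.00757 in mammary gland and -0.0628 in liver.

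Across the 12 group means the closest pairs of members were C1qa with C1qc (r = 0.984) and Mrc1 with C1qa (r = 0.97), while Lyz2 and Mrc1 had r = -0.04. Among the 14207 other genes, Fcna, a ficolin of the lectin complement pathway, followed C1qa most closely (r = 0.987), Ltbp3 followed Lyz2 (0.99), Rin3 followed Cd68 (0.944) and Ggt5 followed Csf1r (0.983). Bmyc (0.969) and Cd300a (0.967), an inhibitory receptor of myeloid cells, were nearest to the mean of all 10. Within mammary groups Lyz2 was nearest to Ly86 (r = 0.839 over 19 arrays), the partner of the receptor CD180, and the mean of the 10 to Rnf39 (0.824). Nearest to the other members there were Kif1c for Cd68 (0.923), Prm2 for Aif1 (0.838), Sord for Mrc1 (0.834) and Mob2 for C1qa (0.928). Dpp7 was nearest to C1qb (0.896), Itgb5 to C1qc (0.952), Ptpn18 to Csf1r (0.897), Fmo1 to Cd163 (0.864) and Krt4 to Itgam (0.859). With 12 or 19 points and so many candidates, high values of r arise readily.

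In the microgravity set none of the 10 genes was called. For microgravity against the flight control 0.367% of all probe sets were called, for microgravity against the vivarium control 0.493% and for the flight control against the vivarium control 0.00322%. An unadjusted limma p under 0.05 was reached by 5, 2 and 1 of the 10 genes in these comparisons. Over all 31042 probe sets it was reached by 4100, 2951 and 2851, in the same order. Mrc1 was 10.82, 10.73, 10.87 and 10.70 in microgravity, against 10.61, 10.72, 9.88 and 10.17 in the flight control and 9.61, 10.42, 10.23 and 9.96 in the vivarium control. The microgravity glands lay above every vivarium gland and overlapped the flight control through FDSB, with log2 fold changes of 0.44 against the flight control (SE 0.20, limma adjusted p 0.37) and 0.73 against the vivarium control (SE 0.20, limma adjusted p 0.17).

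Cd163 was 10.42, 10.17, 10.31 and 9.52 in microgravity, against 8.96, 9.67, 9.09 and 9.37 in the flight control and 8.48, 9.89, 9.67 and 9.35 in the vivarium control. FLTD fell inside both control ranges, and the log2 fold changes were 0.83 (SE 0.29, limma adjusted p 0.23) and 0.76 (SE 0.29, limma adjusted p 0.37). Aif1 and C1qa had negative values against the flight control, -0.53 (SE 0.23) and -0.35 (SE 0.15), both with limma adjusted p 0.34. FDSB was the highest array of the set for Cd68, Lyz2, Aif1, C1qa, C1qb and Csf1r, and its lymphocyte list mean was 8.65, the highest of the set, against 4.99 to 6.30 in the microgravity glands; the part of lymphoid cells was not tested. VIVA, which carried skeletal muscle genes (mean 7.46), was the lowest for Mrc1, Cd163 and C1qc.

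**Figure D4:**
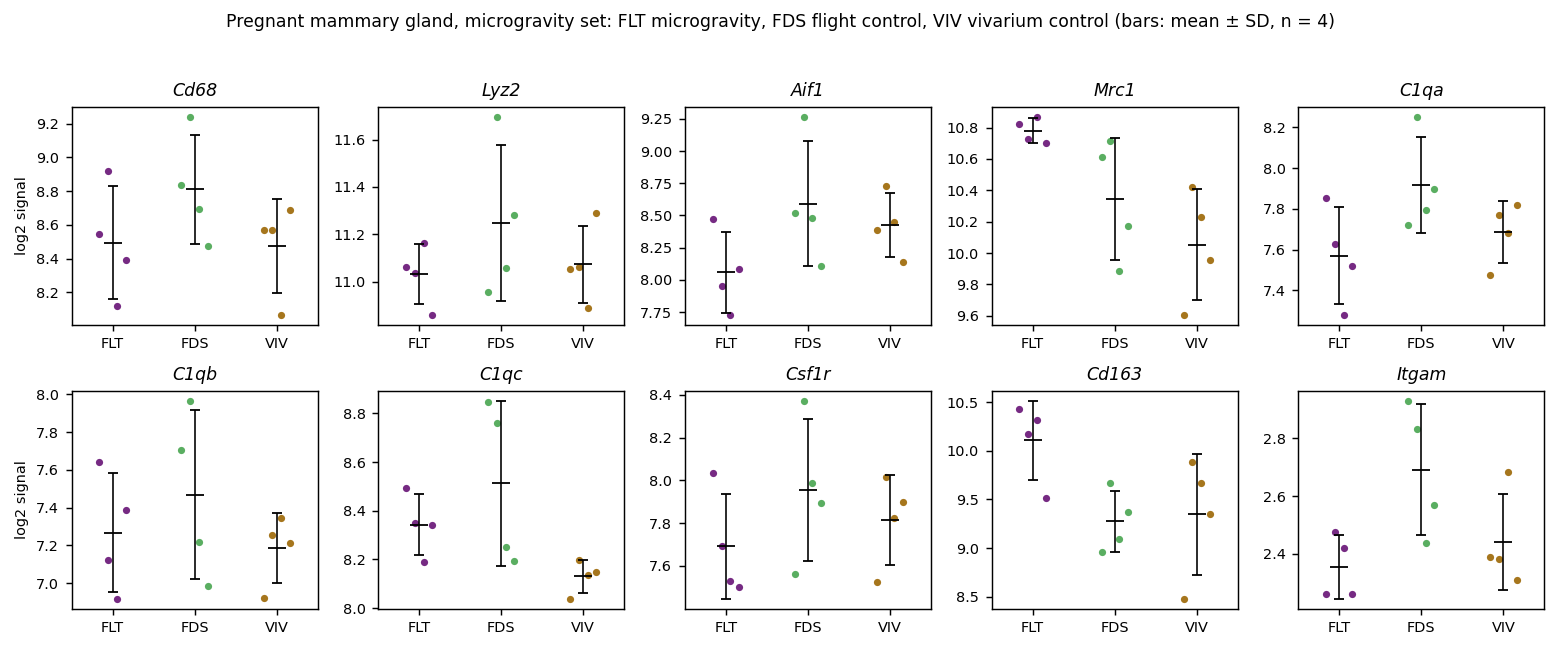
Log2 signal (y axis) of the 10 genes in pregnant mammary gland in microgravity (FLT), the flight control (FDS) and the vivarium control (VIV), with 4 points each and mean ± SD. Mrc1 and Cd163 have their highest group means in FLT (10.78 and 10.10), though no difference passed the test.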

How the data were processed

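RNA was measured on 72 rat arrays. Per the labels' protocols RNA was isolated with TRIzol (mammary gland, liver) or RNeasy Lipid (adipose tissue), and 25 ng was amplified and labelled with NuGEN Ovation Biotin. The authors deposited 1 table of log2 signals for 31042 probe sets, made with RMA per the submitters' processing notes; its version and the arrays processed together are not given in the sources used here. All columns were used (0 unused). Groups came from the labels.

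The members and all gene lists were chosen with earlier results of these data known, and counts over them are descriptions. In the platform annotation 20826 probe sets name 1 gene, 436 several and 9780 none. The text names all 10 members, each by its brightest probe set, up to 3 called genes of largest change per other list, and the genes most correlated with members. Lists were tested gene by gene in limma 3.58.1 (R 4.3.3, group means, Benjamini-Hochberg over all probe sets, called under 0.05), with 1 fit per tissue, 1 over tissues and 1 for the microgravity set, 26 comparisons in all. The fits were tested on simulated data. Signals of the same rat code deviated together only weakly (median r 0.13, 0.13 and 0.16 over 19 rats for the 3 tissue pairs), so the rat block was an alternative, as was the letter of the microgravity set (median r -0.08, -0.09 and 0.01). Other alternatives were array weights, a trended and robust prior, rescaling to the 75th percentile, quantile normalization, a filter on dim probe sets, means of probe sets, M210H and A210H kept, fits of only the groups compared and each array left out. One was added after seeing the data: leaving out arrays carrying markers of another tissue. The number of arrays, 4 or 5 per group, limits the precision.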

Additional observations from a re-analysis of the deposited data

Results flagged for a closer look

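In 8 of 150 gene and group combinations 1 array lay far from the rest of its group by Dixon's criterion, which chance alone gives in about 1 of 20. Cd68 was 7.36 on M56H, against 8.77 to 9.24 in the other pregnant hypergravity mammary glands. Mrc1 was 10.20 on M203H, against 10.87 to 10.99 in the other lactating hypergravity mammary glands. On A219S, lactating adipose tissue at standard gravity, Lyz2 was 11.42 (others 10.07 to 10.45) and C1qa 10.09 (others 9.20 to 9.27). In liver, Mrc1 was 11.49 on L59H (others 11.23 to 11.25), Cd163 was 9.54 on L44S (others 9.89 to 9.95) and Itgam was 2.57 on L219S (others 2.78 to 2.86). Itgam was 4.77 on A214S, against 2.65 to 3.14 in the other lactating adipose arrays at standard gravity.

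Differences of effects that passed the test (limma adjusted p under 0.05) were the change of the mammary stage effect with gravity for Aif1 (1.11) and Mrc1 (0.99). The stage effect at standard gravity was lower in mammary gland than in liver for Cd68 (-1.76), Lyz2 (-2.73), Aif1 (-1.29) and Csf1r (-1.48). It was lower in mammary gland than in adipose tissue for Cd68 (-2.73), Lyz2 (-2.35), Aif1 (-1.72), C1qb (-1.71), Csf1r (-1.95) and Cd163 (-1.44), all on the log2 scale.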

How the results depend on the processing

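Of 237 counts of called genes under other settings 232 stayed within 1.5 times the reported count, as did 784 of 790 with 1 array left out, and no fold change that was called turned its direction (0 of 3665 values). The count for hypergravity in lactating mammary gland was 4 with array weights (reported 2), with Lyz2 and C1qb added. For the mammary interaction (reported 2) it was 1 with probe sets averaged per gene, 0 with the arrays that carry another tissue's markers left out, and 1 to 2 with 1 array left out (1 without M217H or M206H). For liver against adipose tissue in pregnancy (reported 5) it was 2 with M210H and A210H kept, 3 with only the groups compared in the fit, and 2 to 6 with 1 array left out (2 without A57S, 3 without A52S, L44S or L48S). The causes were not tested. The rat as a replicate block left the counts between tissues at 6, 4, 5, 7, 9 and 7 and those of the stage effects at 4 and 6, and the letter as a block left 0 in the microgravity set, so the paired fits changed no count. Within a tissue no paired analysis was possible because the groups share no rat code. Signals near the array median or below, as for Itgam and the dim Aif1 probe set, limit what can be seen there.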

Other observations

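Array M210H, labelled lactating hypergravity mammary gland, lay above the range of its labelled group for 6 of the 10 genes (Mrc1, C1qa, C1qb, C1qc, Csf1r and Cd163), for example C1qc at 9.50 where the group had 7.29 to 8.28. Array A210H, labelled adipose tissue of the same rat, lay below its labelled group for 9 of the 10, for example Cd163 at 8.60 where the group had 9.81 to 11.07, and above it for Itgam. Both were in no comparison.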
